A study of Mus musculus with 2 samples.

Results

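Transcripts of the proteasome were followed through the leukocyte clusters of the nephritic mouse kidney, in 1 WT library and 1 Vsir-/- library. The members were 33 listed constitutive subunit genes, all of which were found among the 20299 genes measured. They comprised 7 genes of the alpha ring, 3 catalytic and 4 noncatalytic beta subunits, 6 ATPase and 11 non-ATPase subunits of the regulatory particle, and the PA28 genes Psme1 and Psme2. For comparison, 34 other genes of the pathway (3 immunoproteasome genes among them) and 8 genes of the CCT chaperonin were read in the same way.

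The proteasome is the protease that degrades most short-lived and damaged proteins tagged with ubiquitin. Its core particle is a barrel of stacked rings, in which outer alpha rings gate the entrance and inner beta rings carry the proteolytic sites of Psmb5, Psmb6 and Psmb7. The regulatory particle caps the barrel, where ATPases (Psmc genes) unfold the substrate and non-ATPase subunits (Psmd genes) bind and remove ubiquitin. Interferon gamma can induce the immunosubunits Psmb8, Psmb9 and Psmb10, which replace the 3 catalytic subunits in newly built cores, and the PA28 cap, which opens the gate independently of ubiquitin. These changes shape the peptides presented on MHC class I.

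Both libraries came from kidneys of C57BL/6 mice aged 8 weeks with nephrotoxic nephritis (NTN), an antibody-driven glomerulonephritis. Every animal had received 200 μg of sheep IgG in Freund's complete adjuvant into the peritoneum and, 4 days later, nephrotoxic serum by vein, so that no kidney without NTN entered the comparison. GEO's labels give the serum as 2 μL/g, whereas the study's methods name a higher dose. Vsir-/- mice lacked Vsir, the gene of the inhibitory checkpoint protein VISTA, and WT mice carried it. The number of mice behind each library was not given in the sources used here, and the labels tied cells to a library only, so each genotype was 1 sample and no test between genotypes was possible. Intervals throughout are 95% intervals for counting error alone. Levels are unique molecular identifier (UMI) counts per 1000000 UMIs of the same cells (CPM), which can be compared for 1 gene or 1 sum of genes between cells but not between genes.

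The libraries differed in more than genotype. The WT library held 5470 cells with a median of 4726.5 UMIs, and the Vsir-/- library 1844 cells with a median of 6673, with 5 cell barcodes in common. Vsir itself had 4278 UMIs in the WT library and 8 in the Vsir-/- library (130 against 0.430 CPM), as labelled. GEO's labels described the WT cells as sorted for CD45 and the Vsir-/- cells as unsorted kidney cells, whereas the study's methods describe sorting of both. Transcripts of a list of 20 kidney tubule genes were found in 144 of the WT cells (2.63%) and in all 1844 Vsir-/- cells, at 5.09 and 6550 CPM. Xist had 0 UMIs in the WT library and 16405 in the Vsir-/- library, and the Y-linked Eif2s3y had 2150 and 0, although the methods name male mice. Genotype, sex, sorting and library therefore cannot be told apart. Of the genes with at least 100 UMIs in 1 library, 195 had them in the WT library and none in the other, and 1011 had the opposite pattern, counts that include genes of the sex chromosomes and of kidney tissue. At least 1 gene stood under different symbols in each library (AI314180 in WT and Ecpas in Vsir-/-). All 33 members were counted in both libraries, with at least 1253 UMIs per library.

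Some cells also went against the name of their cluster. In the Vsir-/- library, 233 of the 349 cells of the non-EM-like CD4+ T cluster had no UMI of any of 6 T cell genes, and 243 had none of the leukocyte gene Ptprc, whereas every WT cell of that cluster had a T cell transcript. In the proliferating cluster, 123 of 189 Vsir-/- cells and 4 of 118 WT cells lacked a T cell transcript. Of the 88 Vsir-/- cells named B, 43 lacked all 4 B cell transcripts, against 0 of 969 in the WT library. The results for these 3 clusters are therefore given for all cells and for the cells with a T or B cell transcript. Pathway genes other than the members and the immunosubunits are given for all cells only. The cluster named NKT also held B cell transcripts at 2473 CPM and the cluster named pDC held dendritic cell transcripts at 1658 CPM (WT), and both names are kept only as the authors' labels.

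Stretches upstream of 4 members are printed because these genes stood apart from each other in the comparison between genotypes. Psmb5 and Psmb6 encode catalytic sites, and Psme1 and Psme2 encode the PA28 cap. Each stretch is the longest run free of annotated exons within the 250 bases before the RefSeq start, in build GRCm38.p6, written 5′ to 3′ on the strand of the gene. The submitters' processing notes name mm9 for the counts, so these positions belong to the RefSeq build and not to that of the counts. Capitals mark TGANNNNGC, the core of the antioxidant response element through which NRF1 and NRF2 act, searched on both strands.
Psmb5 (chr14:54618023-54618245, minus strand): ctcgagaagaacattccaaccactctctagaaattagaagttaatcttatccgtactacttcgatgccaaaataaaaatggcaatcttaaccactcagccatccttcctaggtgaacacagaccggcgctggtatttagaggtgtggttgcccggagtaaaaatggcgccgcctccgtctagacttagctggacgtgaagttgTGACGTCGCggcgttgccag
Psmb6 (chr11:70525107-70525356, plus strand): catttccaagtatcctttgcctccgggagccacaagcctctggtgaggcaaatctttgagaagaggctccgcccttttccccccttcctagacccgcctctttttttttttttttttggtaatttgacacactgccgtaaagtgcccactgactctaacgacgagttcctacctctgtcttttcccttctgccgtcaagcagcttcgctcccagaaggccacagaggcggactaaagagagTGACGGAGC
Psme1 (chr14:55578249-55578359, plus strand): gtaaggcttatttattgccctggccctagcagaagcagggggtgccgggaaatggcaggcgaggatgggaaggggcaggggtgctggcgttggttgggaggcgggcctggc
Psme2 (chr14:55591114-55591351, minus strand): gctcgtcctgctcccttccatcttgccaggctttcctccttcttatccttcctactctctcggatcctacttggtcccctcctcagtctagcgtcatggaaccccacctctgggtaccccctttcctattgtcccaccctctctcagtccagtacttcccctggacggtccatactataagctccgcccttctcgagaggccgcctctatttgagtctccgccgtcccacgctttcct

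The motif stood within the stretches of Psmb5 and Psmb6 and within neither of those of Psme1 and Psme2. The Psme1 stretch had only 111 bases and ended 135 bases before the start, but no whole window of Psme1 held the motif either. Of the 33 members, 27 had a RefSeq window, and TGANNNNGC occurred in the windows of 10 (among them Psme2, through another window that overlaps the one shown), while 35.2% of all 32851 windows of 250 bases held it. CCAAT, the box bound by NF-Y, occurred in 10 members and in 33.8% of all windows. TTCNNNGAA, the element of STAT factors, which reads alike on both strands, occurred in 0 members and 7.02% of windows. A member was counted if any of its windows held the motif, whereas the percentages are shares of single windows. These are unlike units and no share per gene is given, so the counts are not read against the percentages. The matches describe letters and no binding was measured. The windows of Psmb8 and Psmb9 were wholly exonic in the GENCODE annotation and are not shown.

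Among WT clusters, neutrophils had the lowest and proliferating cells the highest proteasome level. The 33 members summed to 2100 CPM in neutrophils (2044 to 2158, 524 cells) and to 7089 CPM in proliferating cells (6973 to 7207, 118 cells). Basophils (3280 CPM), B cells (3436), non-EM-like CD4+ T cells (3522), R1 macrophages (3769) and non-EM-like CD8+ T cells (3909) formed the lower end over all UMIs. Other R2 macrophages (4512), ILC2 (4624), γδ T cells (4693) and the cluster named NKT (4754) had overlapping intervals. EM-like CD8+ T cells followed at 5161 CPM, then NK cells (5568), EM-like CD4+ T cells (5716), the pDC cluster (5875) and M2-like R2 macrophages (5916). EM denotes effector memory, R1 the resident macrophages and R2 the infiltrating ones. Between neighbours in this order, the intervals did not overlap at 6 steps only: above neutrophils, above non-EM-like CD4+ T cells, above non-EM-like CD8+ T cells, above NKT, above EM-like CD8+ T cells and above M2-like R2.

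**Figure D1:**
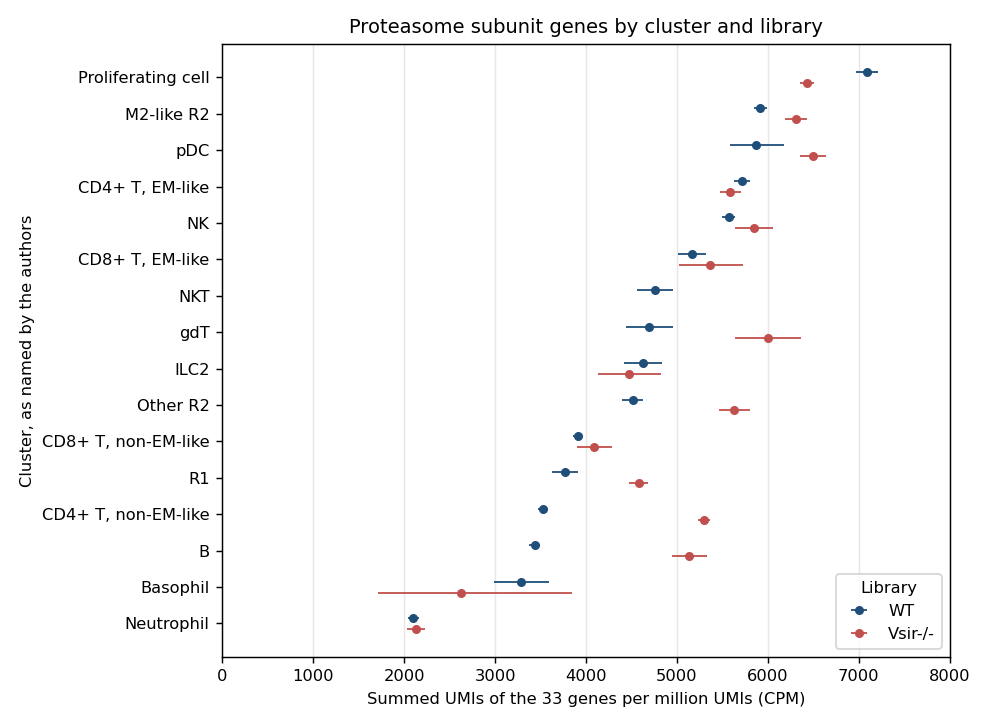
Summed UMIs of the 33 proteasome genes per 1000000 UMIs (x axis) for each cluster (y axis) in the WT and Vsir-/- libraries, with 95% counting intervals. Neutrophils sit lowest in both libraries (2100 and 2129 CPM), and B cells and the non-EM-like CD4+ cluster show the widest gaps between libraries.

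In the Vsir-/- library the sum was again lowest in neutrophils, at 2129 CPM (2027 to 2234, 158 cells). That interval overlapped the one of basophils (2622 CPM, 1713 to 3842, 2 cells). It was highest in the pDC cluster at 6494 CPM, with intervals that overlapped those of proliferating cells (6432) and, for the latter, of M2-like R2 (6309). When genes of mitochondrial DNA and ribosomal proteins were left out of the denominator, neutrophils stayed lowest (2300 and 2288 CPM). Proliferating cells stayed highest in the WT library (9689) and the pDC cluster in the Vsir-/- library (8839). There, proliferating cells (7775) came to stand below γδ T cells (8316) and M2-like R2 (8129) as well. In the WT library, non-EM-like CD8+ T cells moved from rank 6 to rank 12 from the lowest (7699), above EM-like CD8+ T cells (6739). The WT order given above therefore holds for CPM over all UMIs only. Ribosomal protein genes took 43.5% of the UMIs of the WT non-EM-like CD4+ cluster and 7.67% of those of WT neutrophils. In neutrophils, 4 neutrophil genes alone stood at 257210 CPM in WT and 283080 CPM in Vsir-/-, and these UMIs are part of the denominator. Neutrophil levels without them are not given, so the low level holds for CPM over these denominators only.

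Individual members mostly followed the sum. Of the 33 genes, 29 had their lowest WT level in neutrophils and 27 their highest in proliferating cells. The share of all genes with these extremes is not given here, so the counts are not read as particular to the members. The highest level of a member was a median of 4.40 times its lowest over the 16 WT clusters, from 2.38 times for Psma1, an alpha ring subunit, to 11.2 times for Psmc1, a regulatory ATPase. The rank correlation of a member with the sum of the other 32 had a median of 0.841, with 0.971 for Psma5 and 0.588 for Psmd12. This describes 16 clusters that share a library and depth. In the Vsir-/- library 32 members were lowest in neutrophils and 15 highest in proliferating cells, and over 13 clusters the median rank correlation was 0.681, with Psme1 lowest at 0.192.

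The most abundant member of each role showed how the roles parted. Psma7, of the alpha ring, was highest in M2-like R2 (702 CPM in WT, 704 in Vsir-/-) and lowest in neutrophils (160 and 148). Psmd8, a lid subunit, was also high outside the lymphocytes, at 283 CPM in the WT pDC cluster and 256 in WT M2-like R2, against 86.3 in WT neutrophils. Psmb1, a noncatalytic beta subunit, and Psmc3, an ATPase, were highest in WT proliferating cells, at 410 and 190 CPM. Psmb5, the chymotrypsin-like site, ran from 65.7 CPM in WT neutrophils to 251 in WT proliferating cells. Psme1, the alpha subunit of PA28 and the member with the most UMIs, was highest in EM-like CD4+ T cells of the WT library (671 CPM) and in the pDC cluster of the Vsir-/- library (802). Psmd12, a lid subunit with the loosest link to the sum, went from 21.0 CPM in WT neutrophils to 116 in WT proliferating cells.

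EM-like CD4+ T cells had more proteasome transcript than non-EM-like CD4+ T cells of the same WT library. The sum was 3522 CPM in non-EM-like and 5716 CPM in EM-like cells, a log2 ratio of 0.70 (0.67 to 0.73). Every member was higher in the EM-like cells, against 76.1% of all genes tested. Of the 33, 26 were at least 1.5-fold higher, against 37.7% of all 9686 genes tested, and 0 were as much lower, against 7.47%. The members' median log2 ratio was 0.71 and that of all genes 0.40. The difference ran through all roles, from 0.58 for the ATPases and 0.61 for the non-ATPase subunits to 0.83 for the catalytic beta subunits. Psmb5 went from 102 to 181 CPM, Psmb6, the caspase-like site, from 94.9 to 170 and Psmb7, the trypsin-like site, from 53.6 to 93.5. PA28 took part, with Psme1 at 409 and 671 CPM, and the immunosubunits together went from 596 to 1183 CPM. The CCT chaperonin, a folding machine of similar breadth, went from 1066 to 1121 CPM, summed over the 7 of its 8 genes that had UMIs in this library. Without mitochondrial and ribosomal protein genes in the denominator the log2 ratio of the sum was 0.30, less than the value above by more than 1.5 times. In the Vsir-/- library this pair was not compared, since most cells of its non-EM-like cluster lacked T cell transcripts. In the WT library NK cell transcripts stood at 9.87 CPM in the non-EM-like and 715 CPM in the EM-like CD4+ cluster. Transcripts of a list of monocyte genes stood at 40.6 and 1126 CPM. Their part in the difference was not tested.

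CD8+ T cells gave a different picture for PA28. EM-like CD8+ T cells of the WT library had more core (1986 to 2835 CPM) and regulatory particle transcript (1038 to 1529 CPM) than non-EM-like ones, but less PA28 (884 to 797 CPM, log2 ratio -0.15, -0.27 to -0.03). Without mitochondrial and ribosomal protein genes in the denominator the core and the regulatory particle turned (log2 ratios -0.08 and -0.03, the latter with an interval of -0.13 to 0.05), and PA28 was -0.74. Psme1 stood at 571 CPM in non-EM-like and 491 in EM-like cells. The sum of all members had a log2 ratio of 0.40 (0.35 to 0.45), but its direction depended on the scaling: it was -0.19 (-0.24 to -0.14) without these genes, which took larger shares of the UMIs of non-EM-like cells (ribosomal 45.3% against 20.7%). In the WT library 14 members were at least 1.5-fold higher in EM-like cells (37.9% of all genes) and 0 lower (13.8%), with a median of 0.52 against 0.42 for all genes. In the Vsir-/- library, with 28 EM-like and 50 non-EM-like cells, the sum had a log2 ratio of 0.39 (0.27 to 0.51), 11 members were higher by that fold (36.1% of all genes) and PA28 stood at 780 and 747 CPM. There too the direction of the sum turned without these genes in the denominator, from 7424 CPM in non-EM-like to 7206 CPM in EM-like cells (-0.04, -0.16 to 0.07). NK cell transcripts stood at 11.7 CPM in non-EM-like and 1637 CPM in EM-like CD8+ cells of the WT library. In the Vsir-/- library they stood at 20.4 and 289 CPM, and their part was not tested.

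Between genotypes, the sum of the members was higher in the Vsir-/- library in 11 of the 13 clusters with at least 20 cells in each library. The exceptions were EM-like CD4+ T cells (5716 to 5587 CPM) and proliferating cells (7089 to 6432 CPM). Without mitochondrial and ribosomal protein genes in the denominator it was higher in 8 of the 13, and the direction turned in the non-EM-like CD4+ cluster (6631 to 6549 CPM), non-EM-like CD8+ T cells (7699 to 7424) and neutrophils (2300 to 2288). Over all UMIs, the largest ratios were those of B cells and the non-EM-like CD4+ cluster, followed by γδ T cells, Other R2 and R1 macrophages. Over the 13 clusters, 75 gene-by-cluster values were at least 1.5-fold higher and 7 at least as much lower, and with that other denominator these became 40 and 12. Of the 75, 24 were in the non-EM-like CD4+ cluster and 20 in B cells. The share of all genes past this fold ranged from 13.2% (EM-like CD8+) to 58.0% (non-EM-like CD4+) upward. Downward it ranged from 13.1% (EM-like CD4+) to 30.5% (B), and it is given below with the count of each cluster. The share pooled over the 13 clusters is not given, so 75 and 7 are not read as a rise of the members in general. For the other denominator no share of all genes is given, so 40 and 12 are not set against one. Psmb6, Psmd4, a ubiquitin receptor, and Psmd7, a lid subunit, were higher in all 13 clusters and Psmb5 in 12, whereas Psme1 was higher in 5 and Psme2 in 7. The interval lay above 0 in only 4 clusters for Psmb6, 5 for Psmd4, 4 for Psmd7 and 5 for Psmb5. For Psme1 it lay above 0 in 4 clusters and below 0 in 4, and for Psme2 in 4 and 3. All these directions hold for CPM over all UMIs and rest on 1 library per genotype. By cluster, 45.4% (pDC) to 73.9% (non-EM-like CD4+) of all genes tested were higher, and the share higher in as many clusters is not given.

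**Figure D2:**
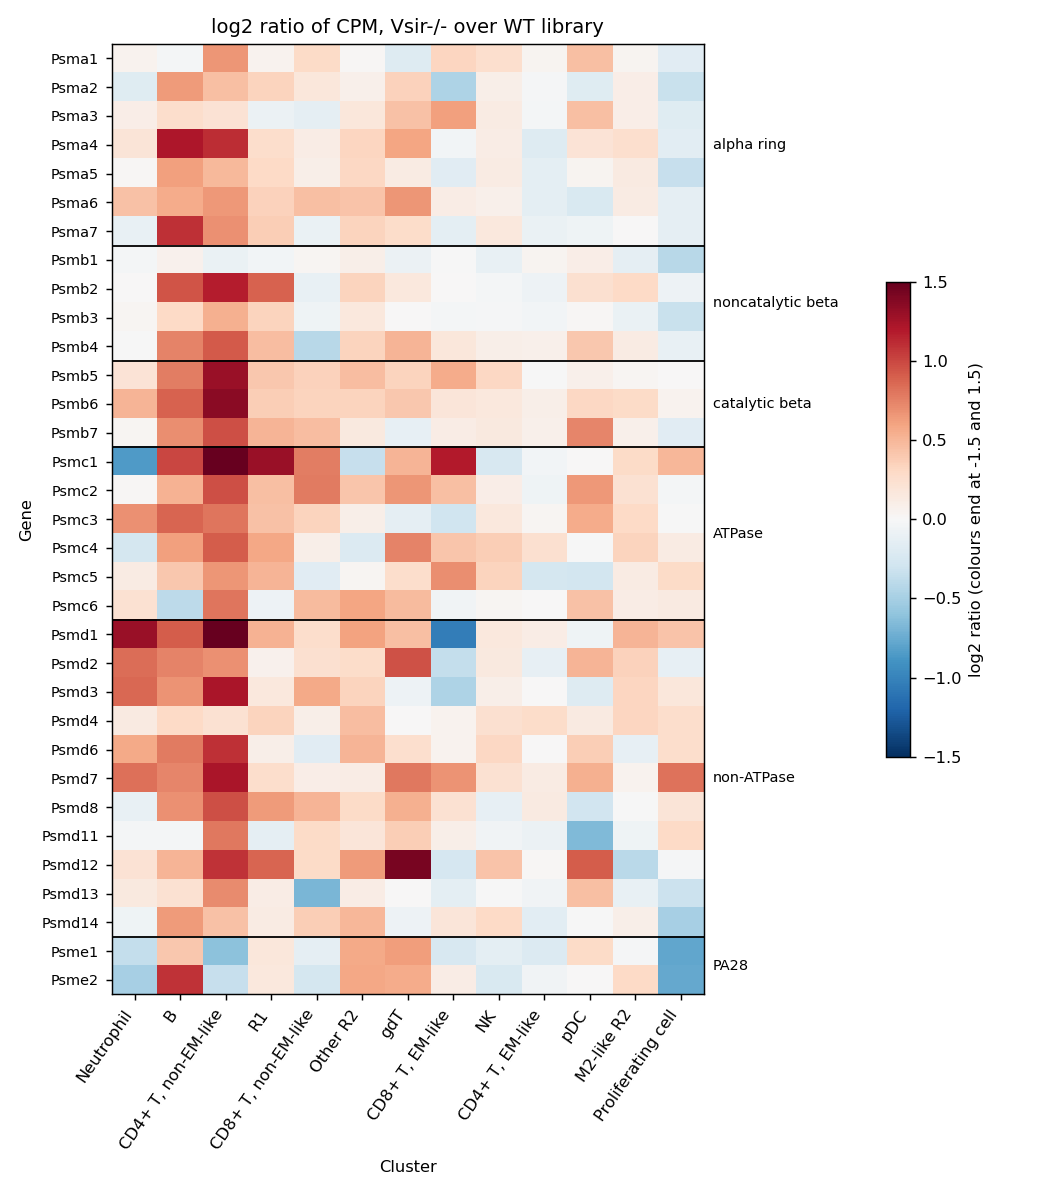
log2 ratio of CPM, Vsir-/- over WT, for each of the 33 members (y axis) in each of the 13 compared clusters (x axis), on a colour scale centred on 0. The non-EM-like CD4+ T and B columns are high for most genes, while Psme1 and Psme2 are low in the non-EM-like CD4+ T, proliferating and neutrophil columns.

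In the non-EM-like CD4+ T cluster the constitutive particle and the PA28 cap moved apart. The sum of the members went from 3522 CPM in WT to 5297 CPM in Vsir-/- (log2 ratio 0.59, 0.56 to 0.62). Catalytic beta subunits had the largest ratio at 1.25 (250 to 597 CPM), followed by ATPases (0.89) and non-ATPase subunits (0.88), with 0.59 for the alpha ring and 0.50 for the noncatalytic beta subunits. PA28 was lower, at 638 CPM in WT and 446 in Vsir-/- (-0.52, -0.60 to -0.43), and its part in the members' UMIs went from 18.1% to 8.41%. The members at the upper end were Psmd1, a scaffold of the regulatory particle, at 33.7 and 106 CPM (1.66, 1.39 to 1.93), Psmc1 at 28.7 and 83.5 CPM (1.54) and Psmb6 at 94.9 and 242 CPM (1.35, 1.19 to 1.51). At the lower end stood Psme1 at 409 and 266 CPM (-0.62, -0.72 to -0.51), Psme2 at 229 and 179 CPM (-0.35) and Psmb1 at 275 and 257 CPM (-0.10). Psme2 has a near copy, Psme2b, counted separately in these tables, so its values are uncertain.

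Most genes differed in this direction in the cluster. Of the members, 24 were at least 1.5-fold higher, a share to be read against 58.0% of all 12583 genes tested, and 1, Psme1, was as much lower, against 14.9%. The median log2 ratio of the members was 0.80 and that of all genes 0.91, but the order of these medians depended on the setting. The members lay above all genes with only genes having UMIs in both libraries (0.80 and 0.70). The same held with genes of at least 100 UMIs (0.80 and 0.73) and in cells with a Ptprc UMI (0.68 and 0.47). They stayed below with genes of at least 1 UMI (0.80 and 1.18), a pseudocount of 1 (0.80 and 0.90) and the denominator without mitochondrial and ribosomal protein genes (0.19 and 0.32). With mitochondrial and ribosomal protein genes out of the denominator the sum gave a log2 ratio of -0.02 and the alpha ring and noncatalytic beta subunits -0.02 and -0.11, the opposite direction, whereas the catalytic beta subunits gave 0.65, the regulatory particle 0.27 and PA28 -1.12. Ribosomal protein genes took 43.5% of UMIs in WT and 13.5% in Vsir-/- in this cluster, and tubule transcripts reached 16854 CPM in its Vsir-/- cells without a T cell transcript and 6631 CPM in those with one. The part of these cells and transcripts in the difference between genotypes was read only from the split that follows.

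Among cells with a T cell transcript, the PA28 difference depended on the denominator. PA28 stood at 638 CPM in the 895 WT cells and at 620 CPM in the 116 Vsir-/- cells with a T cell transcript (log2 ratio -0.04, -0.16 to 0.08), with Psme1 at 409 and 390 CPM and Psme2 at 229 and 230. Without mitochondrial and ribosomal protein genes in the denominator the ratio was -0.51 (-0.62 to -0.39). In the 233 Vsir-/- cells without one, PA28 stood at 383 CPM, with Psme1 at 222 and Psme2 at 161. Core particle transcripts were close in both kinds of Vsir-/- cell (2803 with and 2966 CPM without a T cell transcript) and above the WT level of 1838. In the T cell transcript-bearing cells the sum of the members had a log2 ratio of 0.56 (0.52 to 0.60) over WT, or 0.09 (0.05 to 0.14) with the other denominator, 20 members were at least 1.5-fold higher (46.6% of all genes) and 0 lower (15.8%), and the median was 0.66 against 0.51 for all genes. Comparing Vsir-/- cells without with those with a T cell transcript, 0 members were at least 1.5-fold higher (28.8% of all genes) and 1, Psme1, was lower (11.9%).

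**Figure D3:**
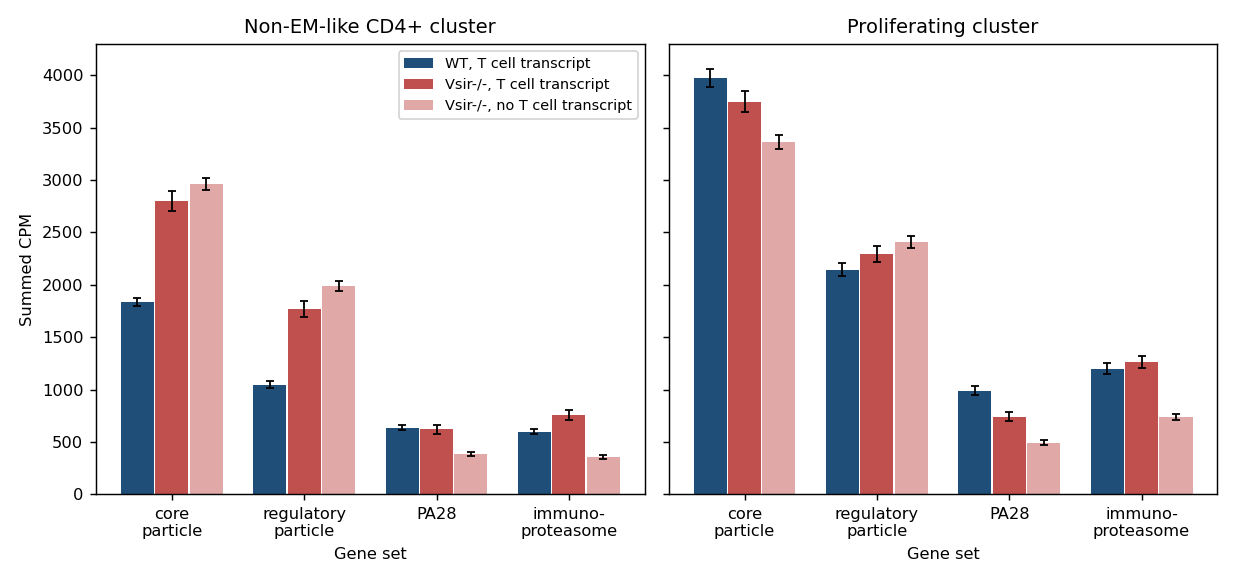
Summed CPM (y axis) of the core particle, regulatory particle, PA28 and immunoproteasome genes (x axis) in the non-EM-like CD4+ T and proliferating clusters, for WT cells with a T cell transcript and for Vsir-/- cells with and without one, with 95% counting intervals. PA28 and the immunoproteasome genes are lowest in Vsir-/- cells without a T cell transcript, while the core particle of the non-EM-like CD4+ cluster is above the WT level in both kinds of Vsir-/- cell.

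Proliferating cells had less alpha ring, noncatalytic beta and PA28 transcript in the Vsir-/- library. The alpha ring went from 2018 to 1753 CPM (log2 ratio -0.20, -0.26 to -0.15), the noncatalytic beta subunits from 1329 to 1110 CPM (-0.26) and PA28 from 983 to 574 CPM (-0.78, -0.86 to -0.69). The catalytic subunits stood close over all UMIs, with Psmb5 at 251 and 252 CPM, Psmb6 at 249 and 259 and Psmb7 at 128 and 113. The regulatory particle went from 2132 to 2370 CPM (0.15, 0.10 to 0.20), but its direction turned without mitochondrial and ribosomal protein genes in the denominator (2913 to 2865 CPM, -0.02, -0.08 to 0.03), where the catalytic subunits gave -0.19. Psmd7 was the only member at least 1.5-fold higher, at 120 and 212 CPM (0.81, 0.61 to 1.03), where 48.2% of all genes were, and Psme1 (568 to 331 CPM) and Psme2 (415 to 243 CPM) were the only ones as much lower, against 14.9% of all genes. Psmc1 (77.1 to 109 CPM) and Psmd1 (101 to 136 CPM) followed at the upper end, and Psmd14, the deubiquitinase of the lid, at the lower end (120 to 85.0 CPM). The members' median log2 ratio was -0.08, while that of all genes was 0.51.

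These differences were smaller among proliferating cells with a T cell transcript. Their sum was 7110 CPM in the WT and 6786 CPM in the Vsir-/- library (log2 ratio -0.07, -0.10 to -0.03, or -0.21 with the other denominator), and PA28 was 990 and 741 CPM (-0.42, -0.53 to -0.31), so PA28 was lower in both kinds of cell. Psme1 stood at 572 and 402 CPM and Psme2 at 417 and 338. Psmd7 was still higher at 120 and 194 CPM and was the only member past 1.5-fold, against 34.2% of all genes, while 0 members were as much lower (13.2%). In the 123 Vsir-/- cells that had none, PA28 stood at 494 CPM. Between both kinds of Vsir-/- cell, 0 members were higher by that fold (27.3% of all genes) and 1, Psme2, was lower without a T cell transcript (11.2%).

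Over all cells and all UMIs, the B cluster showed the members higher in the Vsir-/- library in all roles. The sum went from 3436 CPM (969 cells) to 5133 CPM (88 cells), a log2 ratio of 0.58 (0.52 to 0.64), with 0.59 for the core, 0.53 for the regulatory particle and 0.64 for PA28. At the upper end were Psma4 (87.9 to 204 CPM) and Psma7 (170 to 364 CPM), both of the alpha ring, and Psme2 (157 to 334 CPM). The ATPase Psmc6 (77.8 to 59.1 CPM), the lid subunit Psmd11 (91.6 to 89.6 CPM) and Psma1 (120 to 118 CPM) were at the lower end. Of the members, 20 were at least 1.5-fold higher, against 25.0% of all 9094 genes, and 0 lower, against 30.5%, with a median of 0.65 against -0.04. The Vsir-/- cells of this cluster held fewer B cell transcripts (5678 CPM in WT, 2122 in Vsir-/-) and more of kidney tubule (12.3 and 6109), endothelium (136 and 1037) and macrophages (16.4 and 276), and 38 of the 88 had no Ptprc UMI. The part of these transcripts was read only from the cells with a B cell transcript. Among cells with a B cell transcript (969 and 45) the sum was 3436 and 4267 CPM (0.31, 0.23 to 0.39, or 0.15 with the other denominator), 7 members were higher (15.9% of all genes), 0 lower (36.6%), and the median was 0.37 against -0.18 for all genes. PA28 then stood at 532 and 625 CPM. With the other denominator these cells gave 0.07 (-0.15 to 0.28) for PA28 and 0.12 (-0.04 to 0.28) for the alpha ring. The ATPases gave -0.11 (-0.40 to 0.17), the opposite direction. The noncatalytic beta, catalytic beta and non-ATPase subunits gave 0.12, 0.40 and 0.27.

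The macrophage clusters had modestly more proteasome transcript in the Vsir-/- library. In R1 resident macrophages the sum went from 3769 to 4579 CPM (log2 ratio 0.28, 0.22 to 0.35), with Psmc1 at 21.6 and 53.1 CPM, Psmb2, a noncatalytic beta subunit, at 90.7 and 167 and Psmd12 at 38.9 and 71.2. Of the members, 5 were at least 1.5-fold higher, against 23.4% of all genes, and 0 lower (19.5%), and Psmd11, Psma3 and Psmc6 had the lowest ratios (-0.14, -0.08 and -0.07). In Other R2 the sum went from 4512 to 5632 CPM (0.32, 0.26 to 0.38), with 3 members higher by that fold (14.4%) and 0 lower (20.1%). PA28 had the largest ratio there, from 837 to 1245 CPM (0.57, 0.45 to 0.70), with Psme1 at 481 and 713 CPM and Psme2 at 356 and 532, and without both genes the ratio of the sum was 0.26. At the ends stood Psmd12 (40.6 to 63.4 CPM), Psmd1 (47.6 to 72.5) and Psmc6 (60.9 to 91.9), and Psmc1 (49.2 to 38.8), Psmc4 (70.3 to 60.8) and Psma1 (176 to 179). In M2-like R2 the sum was 5916 and 6309 CPM (0.09, 0.06 to 0.13), and 0 members passed 1.5-fold in either direction (14.2% and 15.6% of all genes). Its extremes were Psmd1 (50.8 to 72.2 CPM), Psmd2 (89.7 to 114) and Psmc4 (69.9 to 87.8), and Psmd12 (64.9 to 49.0), Psmb1 (350 to 319) and Psmd6 (87.2 to 80.0). Transcripts of other cell types moved with these results. Transcripts of neutrophils, the cells with the lowest proteasome level, went from 1724 to 129 CPM in R1, from 3574 to 211 in Other R2 and from 4295 to 241 in M2-like R2. B cell transcripts went from 1131 to 56.2 CPM in R1 and from 1188 to 7.76 in Other R2, tubule transcripts from 24.5 to 2362 CPM in R1, and 52 of the 237 Vsir-/- R1 cells had no Ptprc UMI. Their part in the difference was not tested.

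The pDC cluster and γδ T cells were small in at least 1 library. In the pDC cluster (21 and 86 cells) the sum was 5875 and 6494 CPM (log2 ratio 0.14, 0.07 to 0.22), but it was -0.17, the opposite direction, when each cell was thinned to 1000 UMIs. There, 3 members were higher by 1.5-fold (21.9% of all genes) and 1 lower (21.0%), with Psmd12 (37.8 to 71.0 CPM), Psmb7 (79.3 to 132) and Psmc2 (60.5 to 94.7) at the upper end and Psmd11 (136 to 86.2), Psmd8 (283 to 232) and Psmc5 (83.1 to 68.5) at the lower. In this cluster B cell transcripts went from 616 to 16.1 CPM, T cell transcripts from 559 to 26.2, NK cell transcripts from 193 to 5.07 and proliferation genes from 370 to 835, and their part was not tested. In γδ T cells (46 and 28 cells) the sum was 4693 and 5997 CPM (0.35, 0.24 to 0.47). PA28 led, at 780 and 1179 CPM, with Psme1 at 420 and 649 CPM, Psme2 at 360 and 530 and the alpha ring gene Psma4 at 139 and 209. Psmc3 (118 to 107 CPM), Psmb1 (299 to 282) and Psmd4 (175 in both) had the lowest ratios. Of 32 members with enough UMIs, 8 were higher by 1.5-fold (15.8% of all genes) and 0 lower (17.9%).

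In EM-like T cells, non-EM-like CD8+ T cells and NK cells the sums of both libraries were within a log2 ratio of 0.07 of each other. EM-like CD4+ T cells, of which 489 and 244 were counted, had 5716 and 5587 CPM (log2 ratio -0.03, -0.07 to 0.00), and 0 members passed 1.5-fold upward (17.1% of all genes) or downward (13.1%). Psmd4 (167 to 202 CPM), Psmc4 (78.1 to 92.6) and Psmd8 (145 to 159) had the highest ratios and Psmc5 (109 to 91.3), Psme1 (671 to 584) and Psma4 (208 to 181) the lowest. EM-like CD8+ T cells had 5161 and 5366 CPM, with 4 members higher (13.2%) and 1 lower (24.0%). Psmc5 (59.5 to 96.4 CPM), Psmd7 (75.3 to 120) and Psma3 (240 to 367) stood at the upper end, and Psmd1 (61.9 to 30.1), Psmd3 (58.3 to 42.2) and Psma2 (324 to 235) at the lower, where Psmd1 rested on 5 UMIs in the 28 Vsir-/- cells. Non-EM-like CD8+ T cells had 3909 and 4089 CPM, with 2 members higher (20.01%) and 1 lower (23.3%), and with Psmc2 (44.7 to 76.9 CPM), Psmc1 (26.7 to 45.2) and Psmd3 (41.1 to 61.1) opposite Psmd13 (61.9 to 38.5), Psmb4 (133 to 99.5) and Psme2 (313 to 260). NK cells had 5568 and 5848 CPM (0.07, 0.01 to 0.13), a direction that turned (-0.10) in cells thinned to 1000 UMIs, and 0 members passed 1.5-fold (18.9% upward and 16.7% downward of all genes). Their extremes were Psmd12 (77.7 to 105 CPM), Psmc4 (88.9 to 114) and Psmc5 (88.9 to 112), and Psmc1 (51.1 to 43.4), Psme2 (305 to 260) and Psme1 (524 to 471). Proliferation genes went from 416 to 1413 CPM and T cell transcripts from 1120 to 481 CPM in this NK cluster, and their part was not tested.

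Neutrophils kept their low level, yet PA28 differed there as well. The sum was 2100 and 2129 CPM (log2 ratio 0.02, -0.06 to 0.10), the regulatory particle 552 and 646 CPM (0.23, 0.08 to 0.38) and PA28 435 and 327 CPM (-0.41, -0.61 to -0.21). Psme1 went from 271 to 211 CPM and Psme2 from 164 to 116. Psmd2, a scaffold subunit (23.8 to 42.5 CPM), Psmd7 (18.1 to 32.2) and Psmc3 (35.1 to 56.6) had the highest ratios, and Psmc1, with 46 and 8 UMIs, the lowest. Of the members, 5 were higher by 1.5-fold (17.4% of all genes) and 1 lower (22.7%). In this cluster T cell transcripts went from 451 to 55.3 CPM, B cell transcripts from 173 to 3.86 and tubule transcripts from 2.02 to 3638. Their part in the PA28 difference was not tested.

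**Figure D4:**
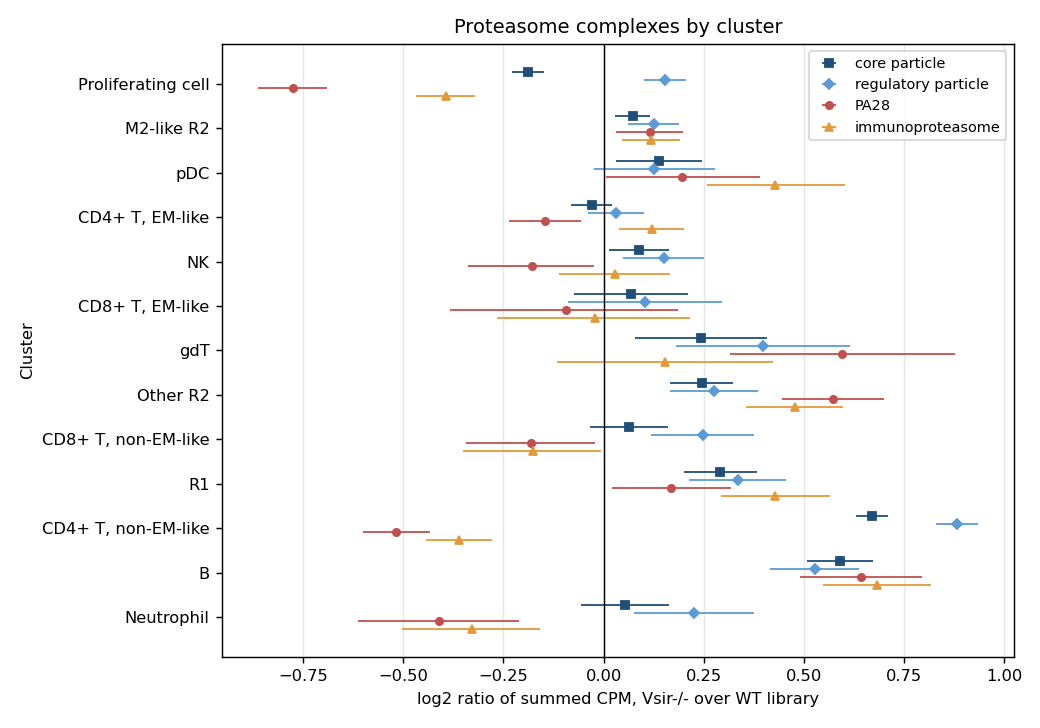
log2 ratio of summed CPM, Vsir-/- over WT (x axis), of the core particle, regulatory particle, PA28 and immunoproteasome genes in each compared cluster (y axis), with 95% counting intervals. PA28 lies below 0 and below the regulatory particle in the non-EM-like CD4+ T, proliferating and neutrophil clusters. The same holds with smaller gaps in both CD8+ T clusters, EM-like CD4+ T cells and NK cells. PA28 lies above both particles in Other R2, γδ T cells, B cells and the pDC cluster.

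PA28 and the immunosubunits, which interferon gamma is known to induce, are set side by side as log2 ratios of their sums. Both were lower in the Vsir-/- library in the non-EM-like CD4+ cluster (-0.52 and -0.36), proliferating cells (-0.78 and -0.39) and neutrophils (-0.41 and -0.33). The same held for non-EM-like CD8+ T cells (-0.18, -0.34 to -0.02, and -0.18, -0.35 to -0.006). With the other denominator these were -0.30 and -0.29. In EM-like CD8+ T cells PA28 was -0.09 (-0.38 to 0.19) and the immunosubunits -0.02 (-0.27 to 0.21). Both were higher in B cells (0.64 and 0.68), Other R2 (0.57 and 0.48), R1 (0.17 and 0.43) and the pDC cluster (0.20 and 0.43). The same held for M2-like R2 (0.11 and 0.12) and γδ T cells (0.60 and 0.15, the latter with an interval of -0.12 to 0.42). In the non-EM-like CD4+ and proliferating clusters, the shared direction depended on the denominator among cells with a T cell transcript. Over all UMIs the immunosubunits were 0.35 (0.24 to 0.46) in the non-EM-like CD4+ cluster and 0.07 (-0.01 to 0.16) in proliferating cells. That was the opposite direction to PA28, at -0.04 and -0.42. With the other denominator the immunosubunits were -0.12 (-0.23 to -0.01) and -0.06 (-0.15 to 0.03), beside -0.51 and -0.56 for PA28. A list of 12 other interferon gamma targets had the opposite sign in the non-EM-like CD4+ cluster (0.13, or -0.48 with the other denominator) and in proliferating cells (0.33), and the same sign in neutrophils (-0.20), B cells (0.78), Other R2 (0.31) and R1 (0.29). It was -0.08 (-0.19 to 0.02) in the pDC cluster. In EM-like CD4+ T cells PA28 was -0.15 (-0.24 to -0.06) and the immunosubunits 0.12 (0.04 to 0.20). In NK cells PA28 was -0.18 (-0.34 to -0.02) and the immunosubunits 0.03 (-0.11 to 0.16).

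The balance between an immunosubunit and the catalytic subunit it replaces was taken as its share of the UMIs of the pair. Because it is a ratio of 2 genes, it does not depend on the denominator, but the genes may be captured unequally, so it is compared only between cells. Psmb8 made up 72.7% (proliferating cells) to 82.0% (neutrophils) of Psmb8 plus Psmb5 in the 13 compared clusters of the WT library. In the non-EM-like CD4+ cluster it went from 77.7% (75.8 to 79.5) in WT to 45.7% (43.5 to 47.8) in Vsir-/-. Psmb9 of Psmb9 plus Psmb6 went from 60.0% to 33.9% in that cluster, and Psmb10 of Psmb10 plus Psmb7 from 64.9% to 55.2%. Behind these shares, Psmb8 went from 354 to 211 CPM and Psmb5 from 102 to 251.

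The shares also differed between both kinds of Vsir-/- cell. In the non-EM-like CD4+ T cluster the Psmb8 share was 62.8% (59.2 to 66.3) in cells with and 36.6% (34.1 to 39.2) in cells without a T cell transcript, and the Psmb9 share was 52.4% and 26.2%. The Psmb8 share of the cells with a T cell transcript was thus below the WT share as well. However, any UMI of a T cell gene placed a cell in this group, and these Vsir-/- cells also held tubule transcripts. T cell transcripts stood at 5498 CPM in the WT cluster and at 399 CPM over all Vsir-/- cells of the cluster. Whether the group matched the WT T cells was not tested, so its lower share is not read as a difference between T cells. In proliferating cells with a T cell transcript the Psmb8 share was 73.1% in WT and 73.0% in Vsir-/-, and it was 57.9% (55.5 to 60.2) in Vsir-/- cells without. Neutrophils had the highest Psmb9 share, at 84.0% in WT and 75.7% in Vsir-/-, with overlapping intervals (80.9 to 86.7 and 68.8 to 81.7). In the pDC cluster the Psmb10 share went from 73.8% to 60.7% with overlapping intervals, while its Psmb8 share went from 76.3% to 81.8%.

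**Figure D5:**
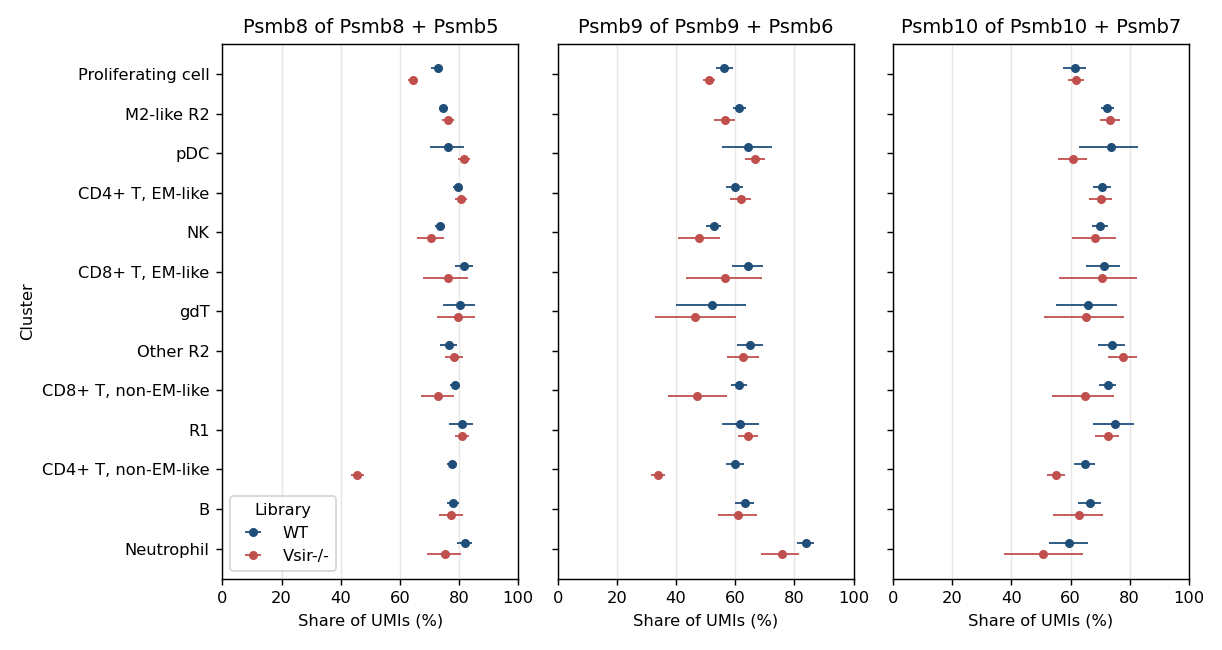
Share of UMIs (x axis, %) of Psmb8, Psmb9 and Psmb10 in the sum with the catalytic subunit each replaces (Psmb5, Psmb6 and Psmb7), by cluster (y axis) and library, with 95% exact binomial intervals. The Vsir-/- non-EM-like CD4+ T cluster stands apart with a Psmb8 share of 45.7% and a Psmb9 share of 33.9%.

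The other genes of the pathway are given beside the share of all genes past the same fold. In the non-EM-like CD4+ cluster, most of whose Vsir-/- cells lacked a T cell transcript, 32 such genes reached 20 UMIs. Of these, 15 were at least 1.5-fold higher in the Vsir-/- library, against 58.0% of all genes, and 3 lower, against 14.9%. Pomp, the chaperone of core assembly, went from 126 to 274 CPM (log2 ratio 1.12, 0.97 to 1.26), and Psme4, an alternative cap, from 26.7 to 58.3 CPM (1.13). Nfe2l1, the gene of NRF1, a transcription factor for proteasome genes, went from 21.5 to 146 CPM (2.76, 2.45 to 3.08). These values cover all cells of the cluster and are not read as differences between T cells. Values for its cells with a T cell transcript are not given. In the proliferating cluster, to which the same limit applies, 9 of 32 were higher (48.2% of all genes) and 4 lower (14.9%). There Nfe2l1 went from 29.4 to 127 CPM (2.11), while Pomp was at 339 and 317 CPM and Psme3, the gene of another PA28 protein, at 62.2 and 38.9. In EM-like CD4+ T cells, where 2 of 32 were higher (17.1%) and 1 lower (13.1%), Nfe2l1 was at 36.8 and 45.0 CPM and Pomp at 284 and 278.

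The counts of pathway genes carry a caveat of annotation. Ecpas, a proteasome adaptor, had 0 UMIs in WT and 801 in Vsir-/-, while its older symbol AI314180 had 1411 and 0, so the counts of pathway genes past 1.5-fold include a change of name in clusters where Ecpas passed. In the B cluster 10 of 32 were higher (25.0% of all genes) and 2 lower (30.5%). In R1 these counts were 7 (23.4%) and 3 (19.5%) of 32, in neutrophils 6 (17.4%) and 3 (22.7%) of 29, in EM-like CD8+ T cells 2 (13.2%) and 8 (24.0%) of 28, and in γδ T cells 2 (15.8%) and 4 (17.9%) of 17. In the remaining 5 clusters 3 to 5 genes were higher (14.2% to 21.9% of all genes) and 1 to 3 lower (15.6% to 23.3%), of 31 or 32.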

How the data were processed

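Kidney cells of 1 WT and 1 Vsir-/- library were profiled by droplet-based single-cell RNA sequencing (10x 3′ chemistry, version 3.1). Per the labels and the study's methods, the authors counted UMIs with Cell Ranger (3.1.0), kept genes in at least 5 cells and cells with at least 200 UMIs and at most 10% mitochondrial UMIs, and merged and clustered the libraries with Seurat (3.2.3) in R (4.0.3). The submitters' processing notes list build mm9. The deposited table holds raw UMI counts and the authors' cluster and library of each cell, and the deposited percent of mitochondrial UMIs served as a filter in 1 alternative. The deposited plot coordinates, a score without a fixed unit, were not used. Removal of doublets was not stated, and none were removed here. Only the end of a transcript is counted, so counts were not divided by length.

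Counts were summed by cluster and library (32799550 UMIs in WT, 18601189 in Vsir-/-) and scaled by the summed UMIs of each cluster and library. Clusters with at least 20 cells in each library were compared (13 of 16; not NKT, basophils and ILC2). Levels have exact Poisson intervals, ratios exact conditional binomial intervals and shares Clopper-Pearson intervals, all at 95% and for counting error only. Medians over genes used a pseudocount of 0.5 and genes reaching 20 UMIs per cluster, and the 1.5-fold counts used CPM without a pseudocount. With 1 library per genotype no test was run. Text values were given for the 3 highest and 3 lowest members per cluster among those with at least 50 UMIs, Psme1, Psme2, Psmb5 to Psmb7, the most abundant member of each role, and the immunosubunits. The strata and pathway genes named beyond these were chosen after their values were seen. Members and lists were chosen with earlier results of these data known. Alternatives changed cells, depth, denominator, members, filter and pseudocount. The members' median log2 ratio was tested on simulated counts in which members were raised by 0.5 before rescaling to the total. After rescaling, the value to recover was 0.478 in B and 0.450 in EM-like CD8+ T cells. The median recovered was 0.577 in B (9076 genes) and 0.466 in EM-like CD8+ T cells (5506 genes). The simulation held counting error only, without transcripts of other cell types or differences of annotation. Python 3.11.15, numpy 2.4.6, scipy 1.17.1, pandas 2.3.3 and matplotlib 3.10.9 were used. Promoter windows came from RefSeq tables, with exons from the GENCODE annotation.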

Additional observations from a re-analysis of the deposited data

Results flagged for a closer look

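The ratio of Vsir-/- over WT had opposite signs in different clusters, and these differences between clusters were not tested, since each genotype was 1 library. The log2 ratio of the sum of all 33 members stood at 0.59 in the non-EM-like CD4+ cluster and -0.14 in proliferating cells. The log2 ratio of PA28, the sum of Psme1 and Psme2, was 0.64 in B cells and -0.78 in proliferating cells. All 3 clusters held Vsir-/- cells without a T or B cell transcript. Among cells that had one, the sum gave 0.56 in non-EM-like CD4+ cells and -0.07 in proliferating cells, and PA28 gave 0.23 in B and -0.42 in proliferating cells. Without mitochondrial and ribosomal protein genes in the denominator these were 0.09 and -0.21 for the sum, and 0.07 and -0.56 for PA28.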

How the results depend on the processing

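With 1 library per genotype no library could be left out. No paired analysis was possible because each genotype had 1 library. Of 143 recomputed main results, 103 stayed within their interval or within 1.5 times the count, 36 moved and 4 whose interval had left out 0 turned in sign. Sums of neutrophils, non-EM-like CD8+ and EM-like CD4+ cells, whose intervals held 0, also changed sign in some settings. Freeing the denominator of mitochondrial and ribosomal protein genes turned the non-EM-like CD4+ cluster from 0.59 to -0.018 and EM-like over non-EM-like CD8+ T cells from 0.40 to -0.19 (log2 ratios of the sum). It gave 0.38 in B, -0.087 in EM-like CD4+, -0.053 in non-EM-like CD8+, 0.26 in Other R2, -0.32 in proliferating cells and 0.30 for EM-like over non-EM-like CD4+. It left 40 values higher by 1.5-fold in place of 75 and 12 lower in place of 7, counts not set against a share of all genes. It also left a sum that was higher in 8 of 13 clusters in place of 11, and moved the median of all genes in the non-EM-like CD4+ cluster from 0.91 to 0.32. Thinning each cell to 1000 UMIs turned NK (-0.10) and pDC (-0.17) and gave 0.022 in EM-like CD4+, 0.43 in non-EM-like CD4+, -0.042 in non-EM-like CD8+, 0.15 in neutrophils, 0.42 in Other R2, 0.49 in γδ T cells, and 0.62 (CD4+) and 0.31 (CD8+) for EM-like over non-EM-like. Leaving out Psme1 and Psme2 gave 0.75 in non-EM-like CD4+, 0.11 in neutrophils, 0.26 in Other R2, -0.060 in proliferating cells and 0.53 for EM-like over non-EM-like CD8+, and leaving out Psme1 alone gave 0.69, -0.10 (proliferating) and 0.48 (CD8+). Cells with a Ptprc UMI gave 0.49 in B, 0.54 in non-EM-like CD4+, -0.078 in proliferating cells and 4 members lower. At most 5% mitochondrial UMIs gave 0.46 in B and 0.67 in non-EM-like CD4+. Among alternatives chosen after seeing the data, at most 0.5% tubule UMIs gave 0.67 in non-EM-like CD4+, -0.10 in proliferating cells and 4 members lower, and cells with their own transcript gave 0.31 in B and -0.067 in proliferating cells. With genes of at least 1 UMI, the members' median exceeded that of all genes in 6 clusters in place of 10. The cause of these changes was not tested. Of 191 single medians and counts, 168 were as before and 23 moved. Thinning left out 167 WT and 78 Vsir-/- cells, and depth was limited in EM-like CD8+ and γδ T cells, with 28 Vsir-/- cells each, and in the pDC cluster, with 21 WT cells.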
